A study of Homo sapiens with 4 samples.

Results

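The 10 genes described here encode chaperones, folding enzymes and regulators of the endoplasmic reticulum (ER): HSPA5, HSP90B1, CALR, CANX, PDIA3, PDIA4, DNAJB9, XBP1, HERPUD1 and SEL1L. They were chosen by name, with earlier results of these data known, and are 10 of the 58735 genes listed in the deposited tables. All 10 were among the 15075 genes abundant enough to be tested. Their mRNA was measured by RNA-seq in HaCaT, an established line of spontaneously immortalized human keratinocytes. The cells were transfected with siRNA against ALKBH5 (siALKBH5), a demethylase that removes N6-methyladenosine from RNA, or with negative control siRNA (siControl), and each group has 2 libraries. The comparison asked which transcripts change when ALKBH5 is depleted. All cells were of the same line and all received an siRNA. The labels do not say which ALKBH5 siRNA was used, how long after transfection the RNA was taken, or whether the 2 libraries of a group came from separate cultures, so the p-values measure only the spread between these libraries, which may be technical.

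Proteins that enter the ER are folded by chaperones and by enzymes that form and rearrange disulfide bonds, and those that fail to fold are drawn back to the cytosol and degraded. When unfolded proteins accumulate, the sensors ERN1 (IRE1), EIF2AK3 (PERK) and ATF6 start the unfolded protein response. ATF6 and the transcription factor encoded by spliced XBP1 mRNA then raise the transcription of chaperone and degradation genes through promoter elements called ER stress response elements, while EIF2AK3 slows translation and favours the production of ATF4 and, further downstream, DDIT3 (CHOP). Keratinocytes are known to engage this response when they differentiate.

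The libraries held between 16017502 and 18837807 counts on genes. Mitochondrial genes took 10.2% of the counts in siControl (both libraries), compared with 9.63% and 9.64% in siALKBH5. The targeted gene itself, ALKBH5 (ENSG00000091542), went from 1512 and 1576 counts to 956 and 816, and after scaling 55.5% of its mRNA remained (log2 fold change -0.85, SE 0.053). Of the 9 keratinocyte markers examined, all 9 were detected, and their summed level in CPM, counts scaled to a common library size, was 18325 and 17916 in siControl and 23801 and 23878 in siALKBH5. The markers of melanocytes, fibroblasts, endothelial cells and leukocytes each summed, per cell type, to at most 35.4 CPM in any library, and TYR, DCT, COL1A2, COL3A1, PDGFRA, PECAM1 and PTPRC had at most 3 counts in each. Other markers of these cell types were detected. At least 10 counts in some library were reached by 3 of 5 melanocyte, 3 of 6 fibroblast, 2 of 3 endothelial and 1 of 3 leukocyte markers. In bulk RNA, a change in the number of cells that express a gene and a change in the RNA of each cell cannot be told apart, and the part that the higher keratinocyte markers have in the results below was not tested.

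The promoters of the genes are shown because the response is known to act through elements within them. A promoter window, 250 bases before to 50 bases after the annotated start, was given by RefSeq (GRCh38.p14) for 9 of the 10 genes and not for PDIA3. The ER stress response element (ERSE) was searched as CCAAT, 9 bases of any kind and CCACG, on both strands. It was found in 27 of 35116 windows, or 0.0769%, and among the 10 genes in HSPA5, HSP90B1, CALR, CANX and XBP1. The related ERSE-II, ATTGG, 1 base of any kind and CCACG, was found in 19 windows, or 0.0541%, and among these genes in HERPUD1. In the stretches below, written 5′ to 3′ on the strand of the gene, the capitals mark these elements.
HSPA5 (chr9:125241379-125241421, minus strand): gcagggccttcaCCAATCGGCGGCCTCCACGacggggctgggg
HSP90B1 (chr12:103930204-103930351, plus strand): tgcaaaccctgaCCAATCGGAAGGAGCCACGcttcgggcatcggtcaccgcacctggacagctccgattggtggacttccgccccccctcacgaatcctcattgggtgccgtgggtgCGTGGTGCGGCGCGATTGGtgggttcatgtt
CALR (chr19:12938372-12938414, plus strand): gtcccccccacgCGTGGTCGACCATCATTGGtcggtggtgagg
CANX (chr5:179698766-179698808, plus strand): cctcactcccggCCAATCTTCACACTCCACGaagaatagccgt
XBP1 (chr22:28800591-28800633, minus strand): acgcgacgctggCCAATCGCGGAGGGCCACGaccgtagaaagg
HERPUD1 (chr16:56932013-56932047, plus strand): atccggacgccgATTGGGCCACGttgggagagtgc

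The ERSE of HSPA5 lay between bases -66 and -48 from the start. That of XBP1 lay between -52 and -34 in the first of its 2 annotated windows and was not in the other. HSP90B1 had 2 elements, from -194 to -176 on the strand of the gene and from -89 to -71 on the other strand. The element of CALR lay from -225 to -207 on the other strand, and that of CANX from -151 to -133 in the first of its 4 annotated windows. The same CANX site lay from -9 to 9 in window 3 and from -189 to -171 in window 4. PDIA4, DNAJB9 and SEL1L held neither element in their windows and only CCACG, which occurs in 38.1% of all windows. The motif TGACGTGG, the core of the element bound by spliced XBP1 and ATF6, was in 0.729% of windows and in none of these genes. A match of letters is a description of the sequence, and binding was not measured.

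**Figure D1:**
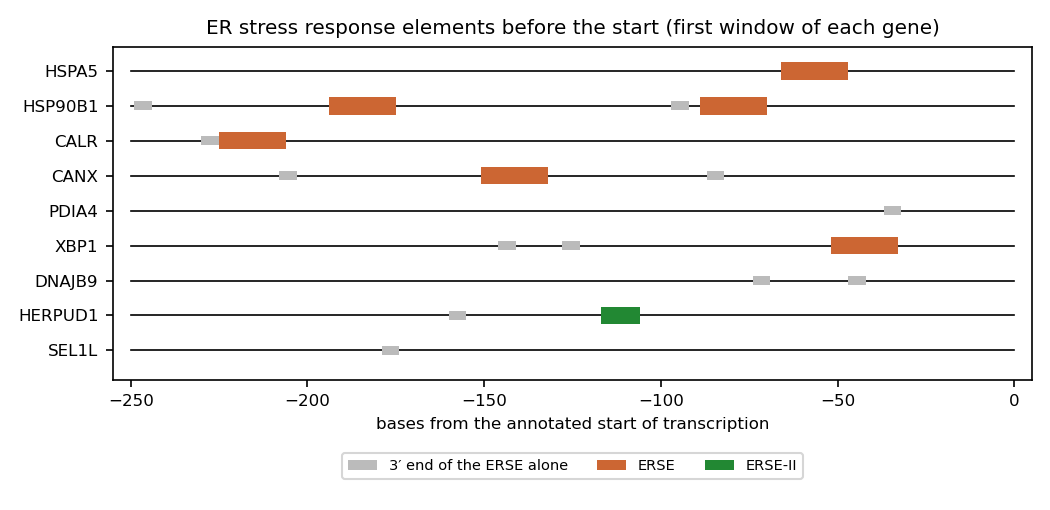
Position of the ERSE (orange), the ERSE-II (green) and the 3′ end of the ERSE alone (grey) in the 250 bases before the annotated start of 9 of the 10 genes, in bases from the start, for the first window of each gene. HSP90B1 has 2 ERSE, HSPA5, CALR, CANX and XBP1 have 1 each, HERPUD1 has the ERSE-II, and PDIA4, DNAJB9 and SEL1L have neither.

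After ALKBH5 knockdown, the 6 genes for chaperones and disulfide isomerases that reside in the ER at high level rose, whereas DNAJB9 and SEL1L fell and XBP1 and HERPUD1 did not pass the test. The rises ran from 1.09-fold for CANX to 1.49-fold for PDIA4. The raw counts were scaled with edgeR's TMM method and compared with its quasi-likelihood test, and a gene was called at a Benjamini-Hochberg adjusted p under 0.05. Of the 10 genes, 6 were called higher, against 19.3% of all tested genes, and 2 were called lower, against 17.3%. Called genes in either direction were 8 of 10, against 36.6% of all tested genes. The genes were chosen with earlier results of these data known, so these shares describe them and are no test of them. By mean CPM, the 6 higher genes ranked between 326 (CANX) and 1675 (PDIA4) of 15075, and small changes are called more readily in abundant genes. The median log2 fold change of the 10 genes was 0.26, and that of all tested genes was -0.0081. With a log2 fold change of 1 or more in size also required in edgeR, none of the 10 passed, against 2.92% of tested genes. The study's methods set the same minimum with DESeq2. There the largest log2 fold change of the 10 was 0.58, for PDIA4. The libraries of the groups did not overlap for any of the 10 genes, which was also the case for 66.3% of all tested genes.

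**Figure D2:**
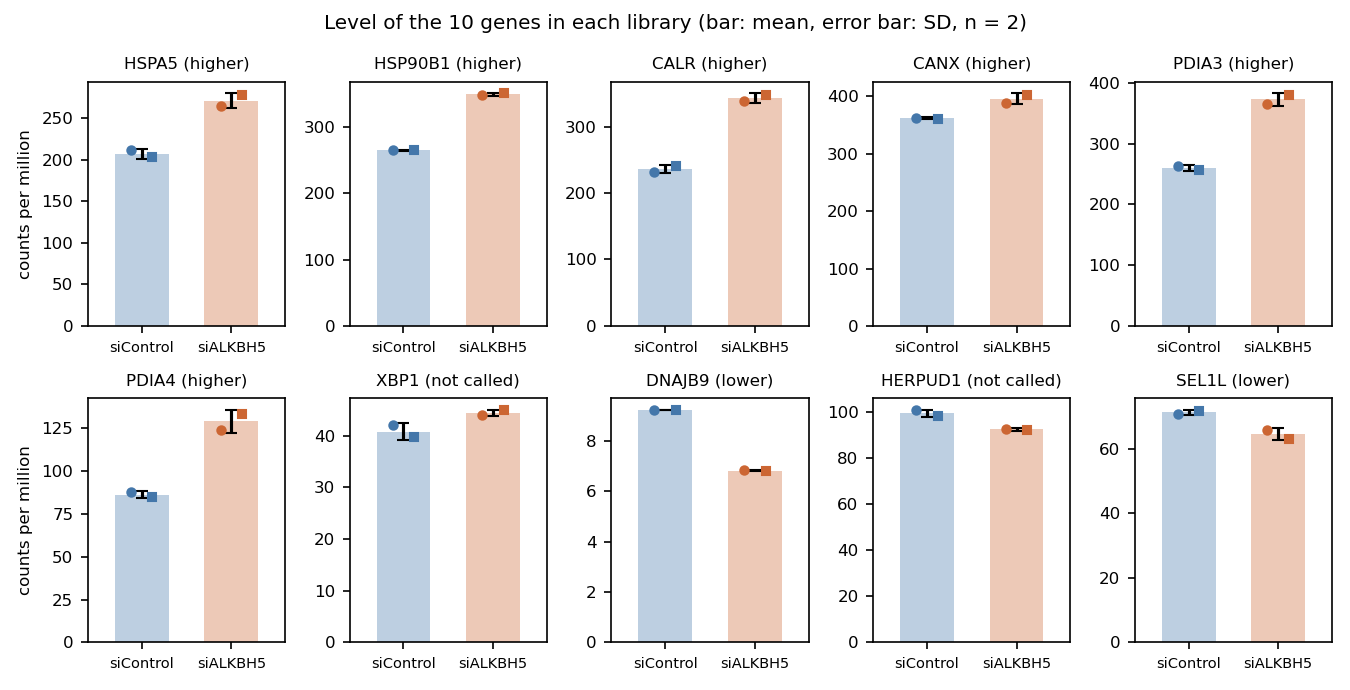
Level of each of the 10 genes in CPM in the siControl (blue) and siALKBH5 (orange) libraries, with circles for the first and squares for the second library of a group, bars for the mean and error bars for the SD (n = 2). Both siALKBH5 libraries lie above both siControl libraries in the 6 genes called higher and in XBP1, and below them in DNAJB9, HERPUD1 and SEL1L.

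HSPA5 (ENSG00000044574, BiP) is the main Hsp70 chaperone of the ER lumen and also binds the sensors of the response. It lies on the minus strand of chromosome 9 of GRCh38 from 125234853 to 125241330. Its level was 212 and 203 CPM in siControl, from 3414 and 3660 counts, and 265 and 278 CPM in siALKBH5, from 4957 and 4581 counts. Both siALKBH5 libraries were higher than both siControl libraries. The mean was 207 ± 5.98 CPM (SD, n = 2) in siControl and 271 ± 9.16 CPM (SD, n = 2) in siALKBH5, a rise of 1.31-fold (log2 fold change 0.39, SE 0.032, edgeR adjusted p = 7.2e-12).

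HSP90B1 (ENSG00000166598, GRP94) is the Hsp90 chaperone of the ER, which folds integrins and Toll-like receptors among other clients. It lies on the plus strand of chromosome 12 from 103930107 to 103953645. It had 265 and 266 CPM in siControl and 348 and 351 CPM in siALKBH5, so that the libraries of each group were nearly equal and the groups lay far apart. The rise of 1.32-fold (log2 fold change 0.40, SE 0.028, edgeR adjusted p = 1.1e-13) was close to that of HSPA5. Within each library the count of HSPA5 was 0.799 and 0.763 times that of HSP90B1 in siControl and 0.761 and 0.793 times in siALKBH5, and these ranges overlapped. C12orf73, on the opposite strand and overlapping HSP90B1, had between 98 and 131 counts in each library, against at least 4273 for HSP90B1, and TTC41P, which overlaps its start, had at most 12.

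CALR and CANX are the lectin chaperones that hold newly made glycoproteins through their sugar chains. CALR (ENSG00000179218, calreticulin), the soluble form, lies on the plus strand of chromosome 19 from 12938578 to 12944489. It had 231 and 240 CPM in siControl and 338 and 348 CPM in siALKBH5. It rose 1.46-fold (log2 fold change 0.54, SE 0.030, edgeR adjusted p = 2.0e-16), with no overlap between the groups.

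CANX (ENSG00000127022, calnexin), the membrane-bound form, lies on the plus strand of chromosome 5 from 179678628 to 179730925. It had 363 and 361 CPM in siControl and 389 and 403 CPM in siALKBH5, the smallest rise among the 6 called genes at 1.09-fold (log2 fold change 0.13, SE 0.026, edgeR adjusted p = 2.0e-04). The 95% confidence interval of its log2 fold change, 0.075 to 0.18, lay below that of CALR, 0.48 to 0.60. The ratio of CALR to CANX counts was 0.636 and 0.666 in siControl against 0.869 and 0.865 in siALKBH5, and the groups did not overlap. With 2 libraries against 2, an exact two-sided permutation test of such a ratio cannot give a p below 0.333.

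PDIA3 and PDIA4 are protein disulfide isomerases. PDIA3 (ENSG00000167004, ERp57), which works on glycoproteins held by CALR and CANX, lies on the plus strand of chromosome 15 from 43746392 to 43773279. It had 263 and 256 CPM in siControl and 366 and 380 CPM in siALKBH5. Both siALKBH5 libraries were the higher ones, and the rise was 1.44-fold (log2 fold change 0.52, SE 0.029, edgeR adjusted p = 2.4e-16).

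A processed copy of PDIA3 on chromosome 1, PDIA3P1, had 258 and 295 counts in siControl against 289 and 318 in siALKBH5, or 4.23% to 6.4% of the PDIA3 counts of a library, and reads could have been split between the copies. With the counts of PDIA3P1 added, the log2 difference between the group means of PDIA3 was 0.50. ELL3 and CATSPER2P1, which overlap PDIA3 on the opposite strand, had at most 44 counts in a library, and whether the counting used strand is not given in the sources used here.

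PDIA4 (ENSG00000155660, ERp72) carries an additional catalytic domain compared with most of its family and lies on the minus strand of chromosome 7 from 149003062 to 149028641. It had 87.6 and 84.8 CPM in siControl and 124 and 133 CPM in siALKBH5. This was the largest rise of the 10 genes by its estimate, 1.49-fold (log2 fold change 0.58, SE 0.044, edgeR adjusted p = 1.0e-12), although its 95% confidence interval, 0.49 to 0.67, overlapped those of CALR and PDIA3. The ratio of PDIA4 to PDIA3 counts was 0.333 and 0.331 in siControl and 0.339 and 0.351 in siALKBH5. All 6 rises passed the test under each alternative other than the minimum fold, and also without any 1 of the 4 libraries.

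XBP1 (ENSG00000100219) encodes the transcription factor that is made when ERN1 cuts a short intron out of its mRNA in the cytoplasm. It lies on the minus strand of chromosome 22 from 28794555 to 28800597. It had 42.0 and 39.7 CPM in siControl and 44.0 and 44.9 CPM in siALKBH5. The siALKBH5 libraries were the higher ones by a margin similar to the spread within siControl. The log2 fold change was 0.12 (SE 0.066, edgeR adjusted p = 0.15), with a 95% confidence interval of -0.011 to 0.26, and no alternative brought it past the test.

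The intron that ERN1 removes is 26 bases long and is annotated in GENCODE 29 as the difference between the transcripts XBP1-201 and XBP1-207, at chr22:28796124-28796149 of GRCh38 on the minus strand. It is shown in capitals with the coding bases on either side, because counts per gene add both forms of the mRNA together.
XBP1: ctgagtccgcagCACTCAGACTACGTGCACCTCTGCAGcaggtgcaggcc
The values of XBP1 therefore give the total mRNA, and the share of the spliced form was not measured by them.

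DNAJB9 (ENSG00000128590, ERdj4) is a J-domain co-chaperone of HSPA5 and a known target of spliced XBP1. It lies on the plus strand of chromosome 7 from 108569568 to 108574850. It was the least abundant of the 10 genes, with 149 and 166 counts in siControl against 128 and 112 in siALKBH5, or 9.23 and 9.21 CPM against 6.84 and 6.80 CPM. Both siALKBH5 libraries were lower, at 73.9% of the control mean (log2 fold change -0.43, SE 0.14, edgeR adjusted p = 0.017).

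The call of DNAJB9 was lost with DESeq2 (adjusted p = 0.12) and when any 1 of the 4 libraries was left out (adjusted p = 0.054 to 0.057), with a log2 fold change between -0.44 and -0.43 in these 4 fits. PNPLA8 and THAP5 overlap the start of DNAJB9 on the opposite strand. THAP5 had 135 and 143 counts in siControl against 134 and 112 in siALKBH5, and PNPLA8 had 421 and 498 against 451 and 383. Their part in the counts of DNAJB9 was not tested. The ratio of HSPA5 to DNAJB9 counts was 22.9 and 22.0 in siControl and 38.7 and 40.9 in siALKBH5. The mRNA of HSPA5 was thus more abundant relative to that of DNAJB9 in both siALKBH5 libraries, and the proteins were not measured.

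HERPUD1 and SEL1L act in ER-associated degradation, in the complex of the ubiquitin ligase SYVN1 (HRD1). HERPUD1 (ENSG00000051108), a membrane protein strongly induced by ER stress, lies on the plus strand of chromosome 16 from 56932048 to 56944863. It had 101 and 98.6 CPM in siControl and 93.0 and 92.2 CPM in siALKBH5. The groups did not overlap, but the difference did not pass the test (log2 fold change -0.11, SE 0.043, edgeR adjusted p = 0.053). It passed when libraries were scaled by their totals only (adjusted p = 0.019) and with the replicate number as a block (adjusted p = 0.037). AC012181.1, which overlaps HERPUD1 on the same strand, had 10 and 11 counts in siControl against 8 and 4 in siALKBH5.

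SEL1L (ENSG00000071537), the adaptor that stabilizes SYVN1, lies on the minus strand of chromosome 14 from 81471549 to 81533861. It had 70.7 and 71.8 CPM in siControl and 65.8 and 63.1 CPM in siALKBH5, both lower than in siControl. It fell to 90.5% of the control mean (log2 fold change -0.14, SE 0.051, edgeR adjusted p = 0.026). The call was lost with DESeq2 (adjusted p = 0.15), without a filter on low counts (adjusted p = 0.057), and without siControl replicate 1 (adjusted p = 0.067), siControl replicate 2 (adjusted p = 0.14) or siALKBH5 replicate 2 (adjusted p = 0.20). Of the 10 genes, 1 was called lower without siALKBH5 replicate 1, and 0 were without any of the other libraries. The ratio of HSP90B1 to SEL1L counts was 3.74 and 3.70 in siControl and 5.29 and 5.56 in siALKBH5, and that of HSPA5 to HERPUD1 was 2.10 and 2.06 against 2.85 and 3.02.

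**Figure D3:**
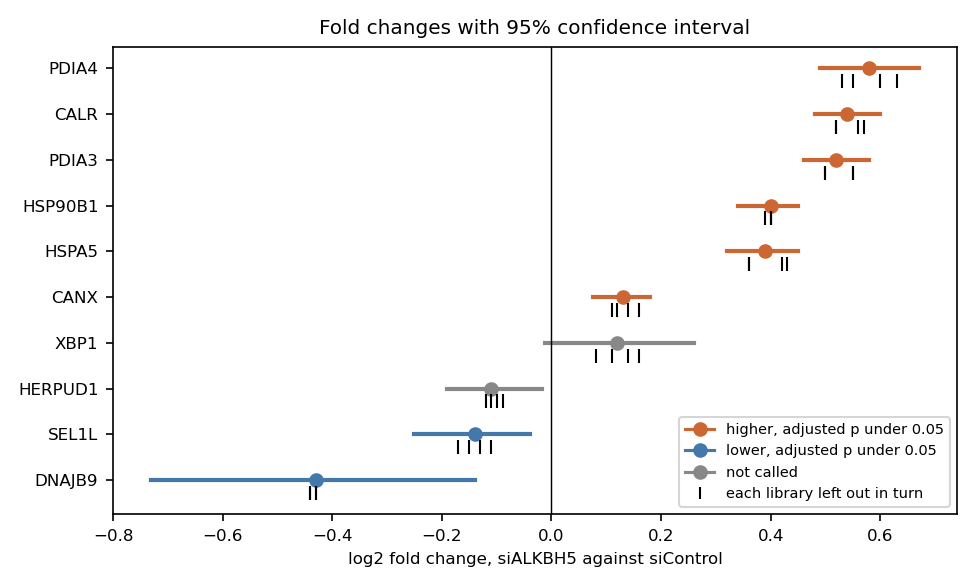
Log2 fold change of the 10 genes, siALKBH5 against siControl, from edgeR, with the 95% confidence interval as a line and, below each, ticks for the values without each of the 4 libraries. PDIA4, CALR and PDIA3 lie between 0.52 and 0.58, HSP90B1 and HSPA5 at 0.40 and 0.39, CANX and XBP1 near 0.1, and HERPUD1, SEL1L and DNAJB9 below 0.

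Levels of different genes were compared per kilobase of the listed gene length. In siControl, CALR was highest at 86.8 ± 2.40 CPM per kilobase (SD, n = 2), followed by PDIA3, CANX, HSP90B1 and HSPA5 at 61.2, 58.1, 56.5 and 53.1. PDIA4 stood at 26.3, HERPUD1 at 19.3, XBP1 at 13.5, SEL1L at 7.45 and DNAJB9 at 3.25 on the same scale. No 2 neighbours in this order overlapped between their libraries, though CANX at 58.3 and 57.8 and HSP90B1 at 56.4 and 56.7 were close. The spread between libraries does not cover the choice of gene length. Whether close ranks would hold with other lengths was not tested. In siALKBH5, CALR stood at 126 ± 2.65 and PDIA3 at 88.0 ± 2.46 (SD, n = 2), while CANX, at 63.5, moved from rank 3 to rank 5 behind HSP90B1 at 74.4 and HSPA5 at 69.5. The other ranks were the same in both groups. Together the 10 genes made up 1644 and 1630 CPM in siControl and 2039 and 2100 CPM in siALKBH5, a 1.26-fold higher sum.

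**Figure D4:**
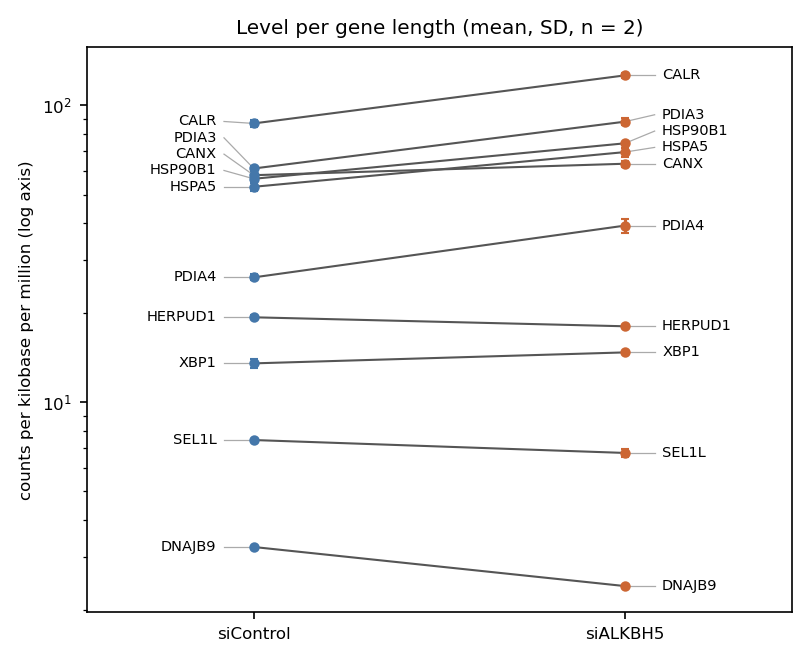
Mean level of the 10 genes in CPM per kilobase of gene length, on a log axis, in siControl (blue) and siALKBH5 (orange), with the SD (n = 2). CALR was highest in both groups and DNAJB9 lowest, and CANX was passed by HSP90B1 and HSPA5 in siALKBH5.

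The other genes of the pathway were taken from 6 lists with 107 genes, of which 103 could be tested. FKBP7, FKBP10, CLGN and DERL3 had at most 4 counts in a library. Across the lists 30 genes were higher, 21 were lower and 52 were not called, with a median log2 fold change of 0.025. Of all tested genes, 19.3% were higher and 17.3% lower, and the counts of each list below stand beside these shares. Whether any list differs from them was not tested. With DESeq2 the calls of CREB3L2, DDIT3, EIF2S1, NFE2L2, TXNDC5, VKORC1, TMX3, UGGT1, LMAN1, ERLEC1 and SELENOS, all named below, were lost (adjusted p = 0.062 to 0.19).

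Among 16 sensors, transcription factors and other regulators of the response, 3 were higher, 3 lower and 10 not called (median 0.034). The sensors themselves were not called: ERN1 had 12.7 and 12.5 CPM in siControl and 13.3 and 13.8 CPM in siALKBH5, with a log2 fold change of 0.10, and the values of EIF2AK3 and ATF6 were 0.018 and 0.050 with overlapping groups. ATF4, the effector of the EIF2AK3 branch, had 203 and 205 CPM in siControl and 204 and 205 CPM in siALKBH5 (95% confidence interval of the log2 fold change -0.059 to 0.070). The signs of EIF2AK3 and ATF4 turned when libraries were scaled by their totals only, at -0.0043 and -0.017.

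TRIB3, a pseudokinase induced by ATF4 and DDIT3, rose from 56.5 and 58.9 CPM to 87.9 and 88.4 CPM (log2 fold change 0.61, SE 0.050, edgeR adjusted p = 5.2e-12). DDIT3, the pro-apoptotic factor of the same branch, fell from 14.1 and 12.4 CPM to 10.8 and 9.77 CPM (log2 fold change -0.36, SE 0.13, edgeR adjusted p = 0.024), so these genes of 1 branch were called in opposite directions. The call of DDIT3 was lost with DESeq2 (adjusted p = 0.13), without siControl replicate 1 (adjusted p = 0.21) and without siALKBH5 replicate 2 (adjusted p = 0.14). CREB3, an ER-anchored transcription factor, rose by 0.36 on the log2 scale, and its relative CREB3L2 by 0.25, the latter call lost without siControl replicate 2 (adjusted p = 0.16) or siALKBH5 replicate 1 (adjusted p = 0.19). EIF2S1, the translation factor that EIF2AK3 phosphorylates, and NFE2L2, a regulator of the antioxidant response, had log2 fold changes of -0.14 and -0.13. Both calls were lost with siControl replicate 1, siControl replicate 2 or siALKBH5 replicate 1 left out. With a library left out, the log2 fold change ran from -0.17 to -0.10 for EIF2S1 and from -0.14 to -0.11 for NFE2L2. The call of EIF2S1 was also lost without a filter on low counts (edgeR adjusted p = 0.084). The number of lower genes in the list was 0 without siControl replicate 1 and 1 without siControl replicate 2 or siALKBH5 replicate 1.

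Of 20 tested further ER chaperones and co-chaperones, 6 were higher, 2 lower and 12 not called (median 0.026). CRELD2, an ER protein induced by stress, rose from 8.18 and 7.99 CPM to 13.1 and 15.5 CPM (log2 fold change 0.82, SE 0.13, edgeR adjusted p = 5.5e-06). MANF, a secreted stress-induced partner of HSPA5, rose by 0.38 on the log2 scale and the cyclophilin PPIB by 0.32. SEC63, the J-domain protein that recruits HSPA5 to the translocon, fell from 58.4 and 60.1 CPM to 48.0 and 46.5 CPM (log2 fold change -0.33, SE 0.058), and the prolyl isomerase FKBP2 fell by 0.25 on the log2 scale. All 5 of these calls held under each alternative other than the minimum fold.

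Of 20 other disulfide isomerases and oxidases, 8 were higher, 3 lower and 9 not called (median 0.033). PDIA5 had 71 and 82 counts in siControl against 167 and 163 in siALKBH5, and its rise was the largest of the listed genes (log2 fold change 1.07, SE 0.16, edgeR adjusted p = 1.9e-06). PDIA6, which also acts on the sensor ERN1, rose from 71.7 and 72.4 CPM to 97.5 and 94.7 CPM (log2 fold change 0.42, SE 0.046, edgeR adjusted p = 5.5e-09). TXNDC5, with 35 and 24 against 72 and 35 counts, overlapped between the groups although it was called (log2 fold change 0.80, edgeR adjusted p = 0.039), and without siALKBH5 replicate 1 its log2 fold change was 0.29 (adjusted p = 0.64) and without siControl replicate 2 it was 0.47 (adjusted p = 0.32). The call was also lost, just short of the threshold (adjusted p = 0.050), when libraries were scaled by their totals only. The membrane-bound TMX1 fell by 0.27 on the log2 scale, and its call held under each alternative other than the minimum fold. VKORC1, which recycles vitamin K, and TMX3 had log2 fold changes of -0.62 and -0.18. Their calls were lost without siControl replicate 1 (adjusted p = 0.067 and 0.052) or siControl replicate 2 (adjusted p = 0.051 and 0.078), that of VKORC1 also without siALKBH5 replicate 1, where its log2 fold change was -0.37 (adjusted p = 0.27), and that of TMX3 without siALKBH5 replicate 2, where it was -0.11 (adjusted p = 0.26). The number of higher genes in the list was 5 without siControl replicate 2, and that of lower genes was 1 without either siControl library.

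In the list for the calnexin cycle, 2 of 8 tested genes were higher and 3 lower (median 0.026). GANAB, the catalytic subunit of the glucosidase that trims the glycans recognized by CALR and CANX, rose from 252 and 260 CPM to 376 and 382 CPM (log2 fold change 0.57, SE 0.028, edgeR adjusted p = 1.6e-17). MOGS, the glucosidase that acts before it, fell from 51.0 and 51.8 CPM to 45.0 and 42.0 CPM (log2 fold change -0.24, SE 0.062, edgeR adjusted p = 0.0027). The enzymes of consecutive trimming steps were thus called in opposite directions. UGGT1, which puts a glucose back on unfolded glycoproteins, had a log2 fold change of 0.19, and its call, and with it 1 of the 2 higher genes, was lost without siControl replicate 2 (adjusted p = 0.20) or siALKBH5 replicate 1 (adjusted p = 0.16). MCFD2 and LMAN1, also counted in this list, form a cargo receptor for export from the ER and are not part of the cycle itself. Their log2 fold changes were -0.25 and -0.11, and the call of LMAN1 was lost without siControl replicate 1 (adjusted p = 0.16) or siALKBH5 replicate 1 (adjusted p = 0.21).

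In ER-associated degradation, the process of HERPUD1 and SEL1L, 6 of 24 tested genes were higher, 6 lower and 12 not called (median -0.017). UFD1 and NPLOC4, the cofactors with which the ATPase VCP extracts proteins from the ER, rose by 0.38 and 0.30 on the log2 scale, and the ubiquitin ligase RNF5 by 0.24. OS9, a lectin that hands misfolded glycoproteins to SEL1L, fell from 156 CPM in both siControl libraries to 135 and 133 CPM (log2 fold change -0.22, SE 0.036, edgeR adjusted p = 1.0e-05). The second lectin of that kind, ERLEC1, and SELENOS, which binds VCP at the membrane, had log2 fold changes of -0.26 and -0.19. The call of ERLEC1 was lost without siControl replicate 2, where its log2 fold change was -0.17 (adjusted p = 0.27), and without siALKBH5 replicate 2 (adjusted p = 0.077). The call of SELENOS was lost without siControl replicate 1 (adjusted p = 0.10), siControl replicate 2 (adjusted p = 0.056) or siALKBH5 replicate 2, where its log2 fold change was -0.10 (adjusted p = 0.37). Without siControl replicate 2 the number of lower genes in the list was 3.

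Of the 15 genes of the translocon and the signal peptidase, through which proteins enter the ER, 5 were higher, 4 lower and 6 not called (median 0.10). The channel subunits SEC61A1 and SEC61G rose by 0.24 each on the log2 scale and SSR4 by 0.23. TRAM1, a membrane protein beside the channel, fell from 224 and 225 CPM to 157 and 162 CPM (log2 fold change -0.49, SE 0.033, edgeR adjusted p = 5.7e-14). The signal peptidase subunit SPCS3 and the translocation factor SEC62 fell by 0.24 and 0.23. All 6 of these calls held under each alternative other than the minimum fold.

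**Figure D5:**
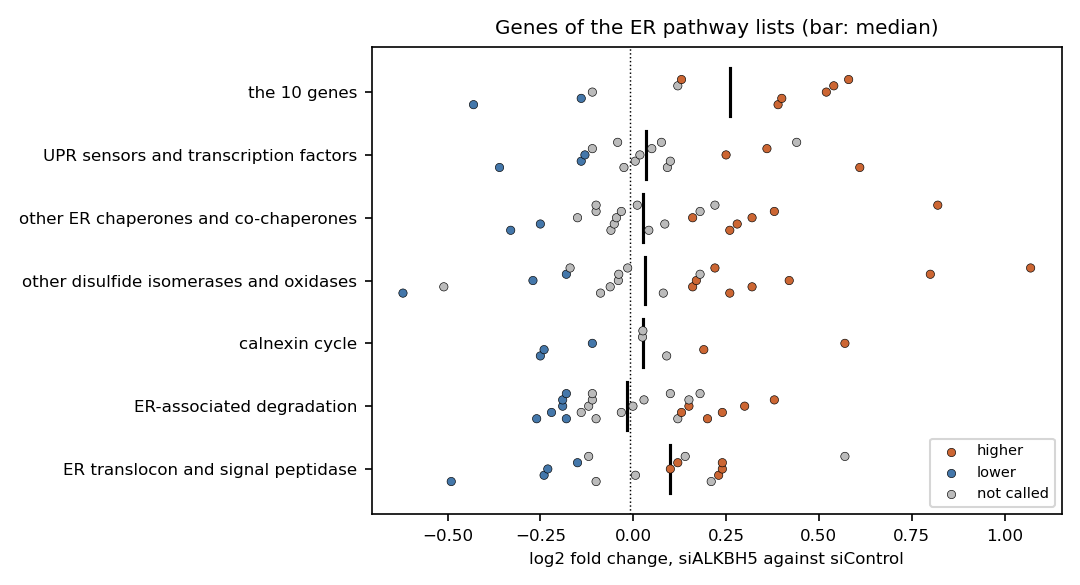
Log2 fold change, siALKBH5 against siControl, of the 10 genes and of the tested genes of 6 lists of ER pathway genes, coloured by call at an adjusted p under 0.05, with a black bar for the median of each group and a dotted line at the median of all tested genes, -0.0081. The median of the 10 genes was 0.26, while those of the lists lay between -0.017 and 0.10, and each list held genes called in both directions.

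The ERSE was also looked up outside the 10 genes, a step chosen after values had been seen. In all, 25 genes had an ERSE in a window, 5 of them among the 10 genes. Of the other 20, 11 could be tested, with a median log2 fold change of 0.01. Of these 11, 3 were higher (CRELD2, PDIA6 and SYNPO), 1 was lower (SERP1) and 7 were not called. CRELD2 and PDIA6 had already been named above for their rises. Of all tested genes, 19.3% were higher and 17.3% lower, and whether the 11 differ from these shares was not tested. Among the 10 genes, HSPA5, HSP90B1, CALR and CANX have an element and were called higher, while XBP1 has one and was not called. PDIA4 rose without an exact match in its windows, and inexact matches were not searched. Whether the element has a part in these changes was not tested.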

How the data were processed

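RNA-seq was performed on poly-A RNA of HaCaT cells, with 2 siControl and 2 siALKBH5 libraries grouped by the sample labels. The authors deposited 1 table per replicate with raw read counts per gene, which are not normalized, and FPKM, which the authors scaled within each table. The deposited FPKM were not used for that reason. The deposited gene length in bases, another column of the authors' tables, was used to compare levels between genes. The log2 fold changes and p-values in the tables are the authors' own comparisons of 1 library with 1 and were not used. The submitters' processing notes name CASAVA, HISAT2 2.0.5, featureCounts 1.5.0-p3, DESeq2 1.20.0 and hg38, without their settings. Reads shared between a gene and a near-identical copy, or between genes on opposite strands, can be counted for either or lost, which affects PDIA3 and DNAJB9 most. Every column of sample values could be assigned to a sample (0 were left).

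Differences in counts were tested over all 4 libraries in R 4.3.3 by the two-sided quasi-likelihood test of edgeR 4.0.16 without covariates, after filterByExpr and TMM scaling, with Benjamini-Hochberg adjustment over 15075 genes. Standard errors and confidence intervals come from the same fit. The common biological coefficient of variation was 0.0253. Totals of 16017502 to 18837807 counts per library set the precision, which is lowest for DNAJB9, and the libraries of a group differed by more than sampling noise (chi-square per degree of freedom 1.74 and 1.85). Alternatives were DESeq2 1.42.0, DESeq2 size factors, library totals, upper-quartile factors, no filter on low counts or a minimum mean of 10, a block for the replicate number, each library left out, and a minimum log2 fold change of 1 in size. The steps were tested on simulated data.

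The members and the gene lists were chosen with earlier results of these data known. Named genes are the 10 members, ALKBH5, ERN1, EIF2AK3, ATF6, ATF4 and DDIT3, the 3 largest rises and falls of each list among called genes with a mean of at least 1 CPM and the same direction in both replicates, and copies or overlapping genes with at least 10 counts. SYNPO and SERP1 were named after their values were seen. Promoters are those of RefSeq, and the tables use the identifiers and GRCh38 coordinates of GENCODE 29. The protein sequences of the members were not used here.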

Additional observations from a re-analysis of the deposited data

How the results depend on the processing

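Of the 10 genes, 6 were higher under every alternative other than the minimum fold, and none of the 10 reversed. Of 110 values of these genes under the alternatives, 98 kept their direction and call, 10 lost the call and 2 gained it. The number lower, 2, was 0 with DESeq2, 1 without a filter and 3 with library totals, and it was smaller with any library left out. With a minimum log2 fold change of 1 in size, 0 of the 10 passed, in place of 8. The lower calls over all genes fell from 2610 to 1444 with DESeq2. In the lists, DESeq2 gave 2 higher and 0 lower sensors and factors, 6 higher isomerases and 1 lower, 1 higher calnexin cycle gene, 3 lower degradation genes and 3 higher translocon genes. Leaving out a library gave 0 to 2 lower sensors and factors, 5 to 9 higher and 1 to 2 lower isomerases, 1 to 2 higher calnexin cycle genes, 3 to 6 lower degradation genes and 4 to 5 higher translocon genes. Uncalled log2 fold changes near 0 turned sign: EIF2AK3 was -0.0043 and ATF4 -0.017 with library totals, and with a library left out EIF2AK3 ran from -0.00073 to 0.042, ATF6 from -0.0013 to 0.10 and ATF4 from -0.0016 to 0.015. The cause was not tested. Another scaling moved the median of all genes by at most 0.022 on the log2 scale. The labels do not say whether same-numbered libraries are paired. The correlation of same-numbered deviations over genes was 0.0418, and with 2 libraries per group it cannot exclude a pairing. With the replicate number as a block 6 of the 10 were higher and 3 lower. Over all genes, 3091 were then higher and 2831 lower, in place of 2913 and 2610. With 112 to 166 counts per library, DNAJB9 is limited most by depth.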
